A study of Mus musculus with 4 samples.

Results

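MHC class II molecules present peptides from ingested protein to CD4+ T cells. An alpha and a beta chain pair in the endoplasmic reticulum around the invariant chain, which keeps the groove closed until cathepsins degrade it in endosomes, and the H2-DM molecule then exchanges its last fragment for a peptide. Transcription of the whole set depends on the coactivator Ciita, which binds to a complex of factors already held on a conserved promoter module and which interferon gamma can induce. Macrophages, dendritic cells and B cells are the usual class II cells of a tissue, and macrophages reside in both thyroid and fat.

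The genes described are the 7 class II presentation genes H2-Ab1, H2-Aa, H2-Eb1, H2-DMa, H2-DMb1, Cd74 and Ciita. They were found by platform symbol, which gave 11 of 26512 probes and 7 of 16593 named genes. The series comprises 4 Illumina arrays of total RNA labelled with biotin, 1 for each sample of Balb/c mouse tissue labelled thyroid, in a study of 131I, the radioactive iodine that thyroid cells concentrate. Samples differ in absorbed dose, which was 0 Gy, 0.85 Gy, 8.5 Gy or 17 Gy, and share a time of 24 h and a strain; the labels state no number of mice and no further treatment. With a single array for each dose, no difference could be tested, and that limits how precisely any value is known. The study asks whether transcription in the tissue responds differently to different doses.

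Median raw intensity was 92, 108, 105 and 95 on the 0, 0.85, 8.5 and 17 Gy arrays, and 7152 to 7528 genes were detected (detection p under 0.01) on each. The labelled tissue was not borne out by its defining genes: 6 of 7 thyrocyte markers with a probe, Tg, Pax8 and Slc5a5 among them, were undetected on all 4 arrays, while all 6 fat markers with a probe were detected on at least 1. Skeletal muscle markers had a summed normalized intensity of 96051 at 8.5 Gy against 136 to 369 on the other arrays. Salivary gland markers had 15334 at 17 Gy against 151 to 174 on the others. Each of these lists was thus far higher on a single array than on the others. At 17 Gy against 0 Gy 4 skeletal muscle markers were also measured, with a median log2 difference of 1.89 (1.14 with bounds). All 4 were at least 2-fold higher by their fitted values, where 0.88% of all genes were.

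Promoter windows of 300 bases, 250 before the annotated start to 50 from it, were found for 4 of the 7 genes in RefSeq sequence of GRCm38.p6, which is C57BL/6J and not Balb/c. Those of H2-Eb1, H2-DMb1 and H2-Aa are printed, and those of H2-DMa are described below only by their matches. The windows are given because class II genes are known to share an X and a Y box at a set distance from the start. A further reason is that the genes are reported here as a set. Capitals mark matches on either strand to GATTGG (the Y box core), ACNGATG (an X box core) and TGACGT (an X2 box core, with which its own reverse complement overlaps in H2-Aa). The windows lie at chr17:34305617-34305916 (plus strand) for H2-Eb1, chr17:34152941-34153240 (plus strand) for H2-DMb1 and chr17:34287774-34288073 (minus strand) for H2-Aa.
H2-Eb1: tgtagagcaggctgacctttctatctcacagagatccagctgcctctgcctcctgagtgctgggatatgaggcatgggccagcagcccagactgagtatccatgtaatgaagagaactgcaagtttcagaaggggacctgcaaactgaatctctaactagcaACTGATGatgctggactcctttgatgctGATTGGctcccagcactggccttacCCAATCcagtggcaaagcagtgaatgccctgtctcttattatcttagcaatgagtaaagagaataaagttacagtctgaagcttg
H2-DMb1: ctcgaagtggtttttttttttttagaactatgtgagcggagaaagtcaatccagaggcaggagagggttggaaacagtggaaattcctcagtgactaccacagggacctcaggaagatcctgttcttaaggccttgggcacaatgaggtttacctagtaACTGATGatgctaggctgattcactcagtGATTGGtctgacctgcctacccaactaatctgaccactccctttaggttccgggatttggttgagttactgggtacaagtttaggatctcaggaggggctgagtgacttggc
H2-Aa: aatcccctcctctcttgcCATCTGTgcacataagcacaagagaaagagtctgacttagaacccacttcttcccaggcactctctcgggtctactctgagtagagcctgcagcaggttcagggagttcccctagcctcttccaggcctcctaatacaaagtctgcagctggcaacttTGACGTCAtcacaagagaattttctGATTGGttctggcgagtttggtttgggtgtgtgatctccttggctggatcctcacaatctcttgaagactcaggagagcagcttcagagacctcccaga

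In H2-Eb1 an X box core match lay at -88 to -82 from the start and a Y box core match at -60 to -55, with a second on the other strand at -35 to -30. In H2-DMb1 the same pair lay at -91 to -85 and -62 to -57, so both genes carry X before Y with like spacing. In H2-Aa the Y box core match was at -49 to -44 and the X2 box core matches spanned -74 to -67, while its X core match, on the other strand, was far upstream at -232. Of the 2 windows listed for H2-DMa, 1 held a Y box core match, at -199 to -194, and neither held the X core. Among all 32851 windows of the table, 16.1% held the Y core, 9.85% the X core, 7.51% the X2 core and 1.52% both the Y and the X core. These matches are descriptions of letters, not sites shown to be used.

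The class II beta chain gene H2-Ab1 was highest at 17 Gy. Its brightest probe read 1256, 1410, 1309 and 2293 in order of dose. The first 3 arrays lay close together and the 17 Gy array stood apart above them. After background correction and quantile normalization the log2 difference from the 0 Gy array was -0.23 at both 0.85 and 8.5 Gy, and 0.85 at 17 Gy, a 1.81-fold difference.

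Its other probes did not all follow the same course. The second probe read 446, 624, 508 and 854, and gave 0.16, 0.02 and 0.999 on the log2 scale. The third read 264, 483, 345 and 437, and gave 0.70, 0.30 and 0.85. On that probe 0.85 Gy was nearly as high as 17 Gy (a log2 difference of 0.16 between them), whereas the brightest probe put 17 Gy above 0.85 Gy by 1.09. The fourth was not detected on any array. All 3 detected probes thus put 17 Gy above 0 Gy, by 0.85 to 0.999, and they disagreed on the direction at 0.85 Gy.

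H2-Aa encodes the alpha chain that pairs with H2-Ab1. Its only probe read 94, 115, 114 and 99, with detection p-values of 0.0881, 0.0433, 0.0102 and 0.0408. It was not well above background on any array, so no fold is given, and the partner of a clearly detected beta chain is unmeasured here. Why the probe was dim was not tested.

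H2-Eb1, the beta chain of the second class II molecule, read 794, 1392, 939 and 1611. The 0.85 and 17 Gy arrays were high and the 0 and 8.5 Gy arrays low. Its log2 difference from 0 Gy was 0.48 at 0.85 Gy, 0.02 at 8.5 Gy and 1.02 at 17 Gy, and the 2.03-fold difference at 17 Gy was the only one of a member against 0 Gy that reached 2-fold. Its alpha chain gene, H2-Ea, is functional in Balb/c mice but not in C57BL/6 mice and was taken from the list of other pathway genes.

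H2-Ea read 1812, 1344, 1756 and 2962. The 17 Gy array was again the highest, and the 0.85 Gy array, high for H2-Eb1, was here the lowest. The log2 differences of H2-Ea from 0 Gy were -0.86, -0.33 and 0.72. At 0.85 Gy the 2 chains of 1 molecule therefore differed by 1.35 in their log2 difference from 0 Gy. The gap was 0.35 for 8.5 Gy, and 0.30 for 17 Gy. For scale, the brightest 2 detected probes of the same gene differed at 0.85 Gy by a median of 0.31, and by 0.92 at the 90th percentile, over 1844 genes.

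The invariant chain gene Cd74 had 2 detected probes. The brighter read 1443, 1938, 1521 and 2434 and the other 1401, 1647, 1240 and 2521. Both were highest at 17 Gy and, once normalized, lowest at 8.5 Gy. Their log2 differences from 0 Gy were -0.01 and -0.18 at 0.85 Gy, -0.23 and -0.47 at 8.5 Gy, and 0.71 and 0.82 at 17 Gy. The gap between the probes at 17 Gy was smaller than the median gap of 0.24 between probes of 1 gene over 1882 genes in that comparison.

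H2-DMa and H2-DMb1 encode the chains of the peptide exchange molecule. H2-DMa read 241, 320, 357 and 414, and it was the only one of the 5 members detected on all arrays whose values followed the order of dose, with log2 differences of 0.13, 0.53 and 0.93 from 0 Gy. H2-DMb1 read 220, 219, 244 and 360. Its log2 differences were -0.46, -0.05 and 0.88, so 17 Gy alone was above 0 Gy. The chains differed from each other by 0.59 at 0.85 Gy and 0.58 at 8.5 Gy, and by 0.05 at 17 Gy. From 0.85 to 8.5 Gy both chains differed by 0.40, so below 17 Gy they parted only against the 0 Gy array.

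Ciita, the coactivator, was close to background throughout. Its probe read 104, 108, 118 and 116, with a detection p of 0.148 at 0.85 Gy, where it was not well above background, and of 0.00503 or less on the other arrays. At 17 Gy its log2 difference from 0 Gy was 0.29, and at 8.5 Gy -0.05. Its value at 0.85 Gy allows only bounds, at least 1.04-fold lower than at 0 Gy and at least 1.27-fold lower than at 17 Gy. Its fitted -0.60 at 0.85 Gy was -0.23 in the authors' normalized values and -0.19 without background correction.

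**Figure D1:**
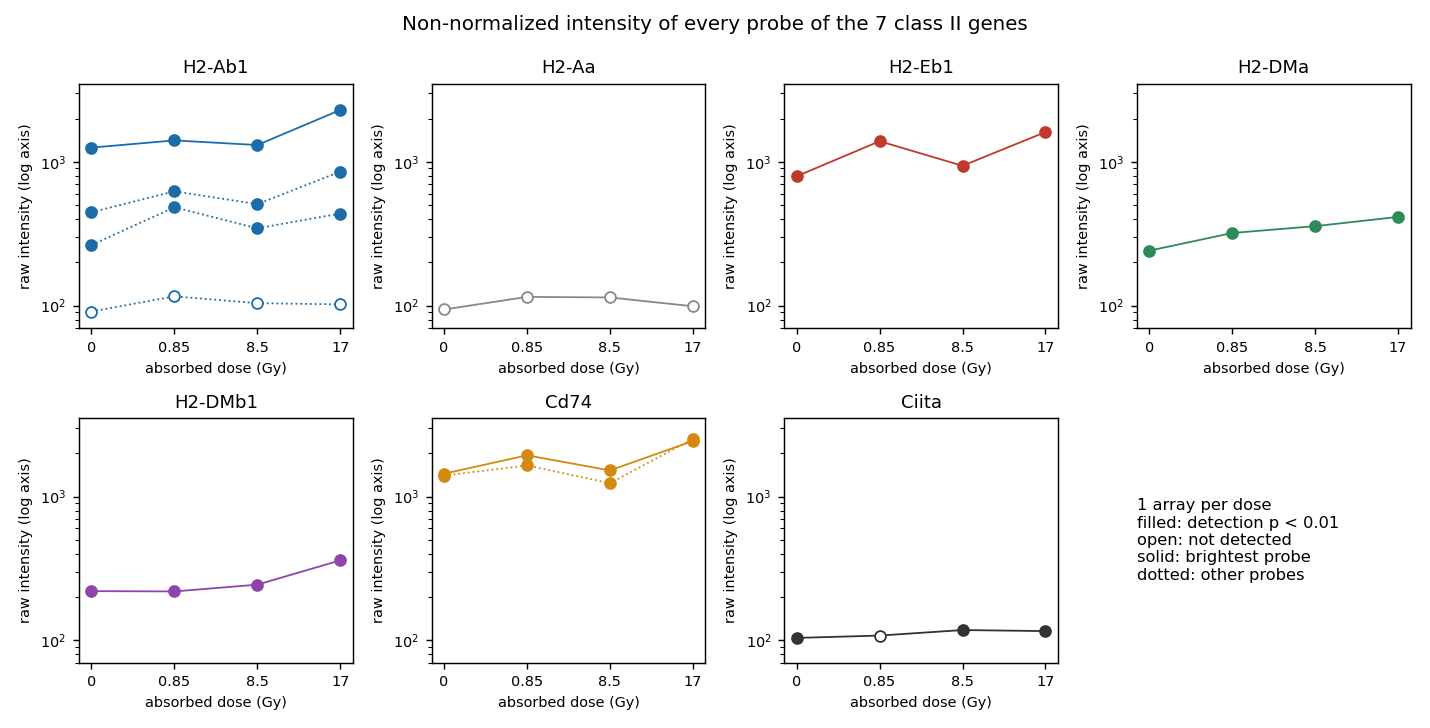
Raw bead intensity (log axis) against absorbed dose in Gy for each probe of the 7 genes, 1 array per dose; filled points were detected at p under 0.01, open points were not, and solid lines mark the brightest probe. The brightest H2-Ab1 probe goes from 1256 at 0 Gy to 2293 at 17 Gy, while H2-Aa stays at 94 to 115 with no point detected.

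Most members were higher at 17 Gy than at 0 Gy, and few differed at the lower doses. At 17 Gy against 0 Gy, 6 of 7 members were measured (detected on at least 1 of the arrays compared), all 6 differences were positive, and 5 were at least 1.5-fold higher with 0 lower. Of 7839 genes measured in that comparison, 5.06% were at least 1.5-fold higher and 4.64% lower. H2-Eb1 was at least 2-fold higher and 0 members were 2-fold lower, where 0.88% and 0.459% of all genes were. The median log2 difference was 0.86 over the 6 members, from 0.29 in Ciita to 1.02 in H2-Eb1, and 0 over all genes. In the authors' normalized values the same 5 genes lay between 0.63 and 0.92 and Ciita at 0.11.

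At 0.85 Gy against 0 Gy, 0 of the 6 measured members were at least 1.5-fold higher, where 9.37% of 7682 genes were, and 1, Ciita, was lower by its fitted value though not by its bound, where 12.7% were. The members' median was -0.12 (-0.03 with Ciita at its bound), from -0.60 in Ciita to 0.48 in H2-Eb1, with 2 positive and 4 negative. None of the 6 was 2-fold higher or lower at 0.85 Gy, where 1.78% and 3.68% of genes were, nor at 8.5 Gy, where 2.63% and 3.63% were. At 8.5 Gy against 0 Gy, 0 members were 1.5-fold higher and 0 lower, where 9.26% and 12.9% of 7862 genes were. The median was -0.05, from -0.23 in H2-Ab1 to 0.53 in H2-DMa. The 3 comparisons share the 0 Gy array, so a low or high reading on that array moves all of them together.

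**Figure D2:**
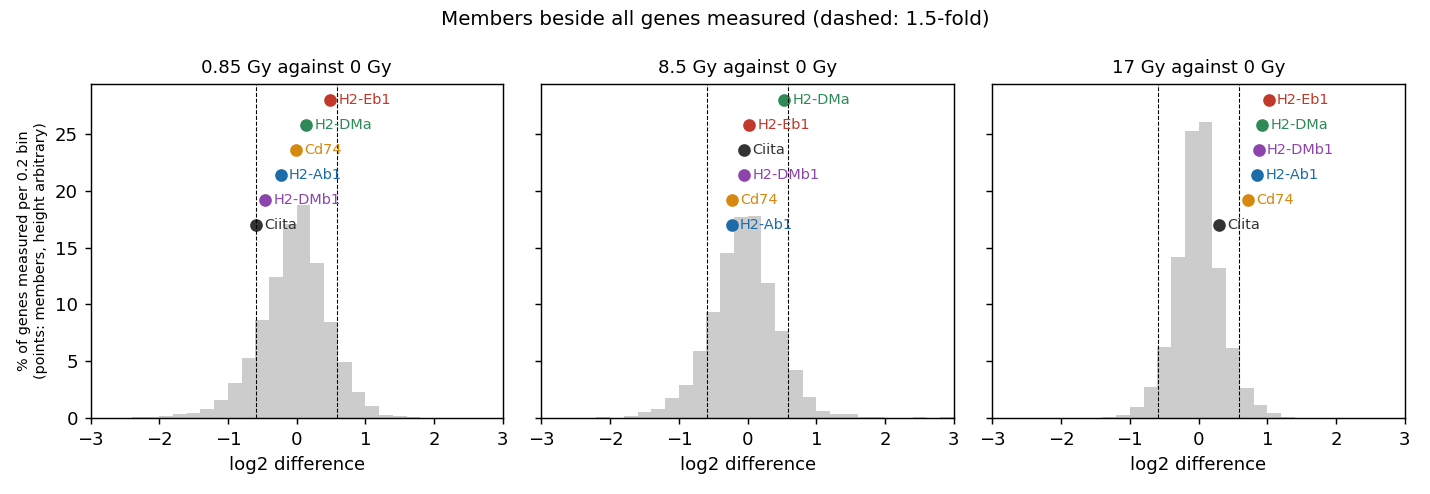
Grey bars give the percentage of all genes measured per bin of 0.2 in log2 difference from 0 Gy, with genes beyond 3 in either direction not drawn; coloured points are the measured members at arbitrary height, and dashed lines mark 1.5-fold. At 17 Gy 5 of 6 points lie right of the upper line, against 0 of 6 at 0.85 and 8.5 Gy.

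Differences between the dosed arrays do not use the 0 Gy array, beyond its part in the common normalization. The 8.5 Gy array carried the high skeletal muscle markers given above, and their part in differences from that array was not tested. At 17 against 8.5 Gy, 4 of 6 measured members were at least 1.5-fold higher, where 12.4% of 8038 genes were, and 0 lower, where 8.76% were. The median was 0.93 (0.05 over all genes). H2-Ab1 and H2-Eb1 were 2-fold higher, as were 3.47% of genes, and 0 members were 2-fold lower, as were 2.65%. H2-Ab1 was at 1.08, H2-Eb1 at 1.003, Cd74 at 0.94 and H2-DMb1 at 0.93, and H2-DMa at 0.40 and Ciita at 0.34 were nearer to 0. At 17 against 0.85 Gy, 5 of 6 were at least 1.5-fold higher (4 with Ciita at its bound), where 11.8% of 7852 genes were, and 0 lower, where 8.41% were. The median was 0.84 (0.76 with Ciita at its bound). H2-DMb1 and H2-Ab1 were 2-fold higher, as were 3.45% of genes, and 0 members were 2-fold lower, as were 1.35%. H2-DMb1 led with 1.33, followed by H2-Ab1 at 1.09, and H2-Eb1 had the lowest fitted value, 0.54. At 8.5 against 0.85 Gy, 0 of 6 were at least 1.5-fold higher or lower, where 8.78% and 8.51% of 7822 genes were, and the median was 0.20 (0.002 with Ciita at its bound). None was 2-fold apart, where 3.27% of genes were higher and 1.48% lower.

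All 5 members detected on every array had their highest normalized value at 17 Gy, as had 23.3% of the 6477 genes detected on every array. In 3 of the 5, H2-Ab1, H2-DMb1 and Cd74, that value was at least 1.5-fold above each of the other arrays, which held for 0.648% of those genes. This count depended on the processing: against 0.85 Gy, H2-Ab1 was at 0.53 with the mean of all probes and Cd74 at 0.54 with scaling to the 75th percentile, both under 1.5-fold. H2-Eb1 was 1.45-fold and H2-DMa 1.32-fold above its next array. Below 17 Gy the order differed between members: 0.85 Gy was lowest in H2-Ab1 and H2-DMb1, 8.5 Gy in Cd74, and 0 Gy in H2-Eb1 and H2-DMa. In H2-Ab1 the 0.85 and 8.5 Gy values differed by 0.003 and in Cd74 the 0.85 and 0 Gy values by 0.01, less than the median gap between probes of 1 gene.

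Most macrophage markers were also higher at 17 Gy than at 0 Gy. Of 12 macrophage markers with a probe, 10 were detected on all 4 arrays, and their summed normalized intensity was 1901, 2491, 1773 and 3395 in order of dose. Itgam and Fcgr1 were undetected on all arrays. At 17 Gy against 0 Gy, 6 of the 10 were at least 1.5-fold higher, where 5.06% of all genes were, with a median log2 difference of 0.84. The complement gene C1qa was at 1.01, the mannose receptor gene Mrc1 at 0.94, Aif1 at 0.91 (0.86 at its other detected probe) and C1qb and C1qc at 0.84. Adgre1, which encodes F4/80, was at 0.52 (0.82 at its other detected probe), and Mertk, an engulfment receptor, at -0.49. The lysozyme gene Lyz2 was at 1.07 at its brightest probe but at 0.07 at its other detected probe. In the authors' normalized values, to which 16 was added before log2, C1qa was at 0.58 and Aif1 at 0.49. Aif1 was under 1.5-fold, and C1qa lay so near 1.5-fold (0.585) that the added 16 may decide its call. Mrc1, C1qb, C1qc and Lyz2 lay between 0.67 and 0.95 in those values.

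At the lower doses the macrophage medians were 0.15 at 0.85 Gy and -0.40 at 8.5 Gy, beside -0.12 and -0.05 in the class II members. At 17 against 8.5 Gy the macrophage median was 1.06, with 8 of 10 at least 1.5-fold higher, where 12.4% of all genes were. At 17 against 0.85 Gy it was 0.63, with 6 of 10 at least 1.5-fold higher, where 11.8% of all genes were. Of 6 general leukocyte markers, 5 were measured at 17 against 0 Gy, with 4 positive, 2 at least 1.5-fold higher and a median of 0.56 (0.35 with Tyrobp, undetected at 0 Gy, at its bound). The 2 were Cd52 and Tyrobp, and the bound of Tyrobp was 1.06-fold. Cd52 was at 0.84, 0.53 and 0.94 in order of dose, and Laptm5 at -0.14, -0.39 and 0.35. Cd53 was at 0.56 and Coro1a at -0.02 at 17 Gy, and the other Coro1a probe detected on all 4 arrays was at 0.74. Ptprc, which encodes CD45, was undetected on all arrays. In RNA of a whole sample, more cells of a type and more RNA per cell cannot be told apart. The part of macrophage RNA in the class II difference was not tested, nor was that of the salivary gland or muscle RNA on the same array.

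Markers of the other class II cells were mostly at background. Of 11 genes listed as dendritic cell markers 3 were detected, Clec10a, Siglech and Zbtb46. Their log2 differences were -0.01, -0.42 and -0.08 at 17 Gy against 0 Gy. Which cells gave the Clec10a signal was not tested. Clec10a was at -1.29 at 0.85 Gy and -1.34 at 8.5 Gy. At 17 Gy it was at 1.28 against 0.85 Gy and 1.33 against 8.5 Gy. Siglech and Zbtb46, undetected at 0.85 Gy, were at -0.70 and -0.44 at 8.5 Gy against 0 Gy. At 17 against 0.85 Gy their bounds were 1.11-fold and 1.496-fold higher. Itgax, Flt3, Xcr1 and Ccr7 were undetected on all arrays. Of 9 B cell markers with a probe, only Cd79b was detected, at 0.85 Gy, and Ms4a1, Cd79a and Pax5 were not detected on any array. Of 6 T cell markers with a probe only Cd3g was detected, at 17 Gy with an intensity of 110, and Cd4, the coreceptor that binds class II, was undetected on all arrays.

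**Figure D3:**
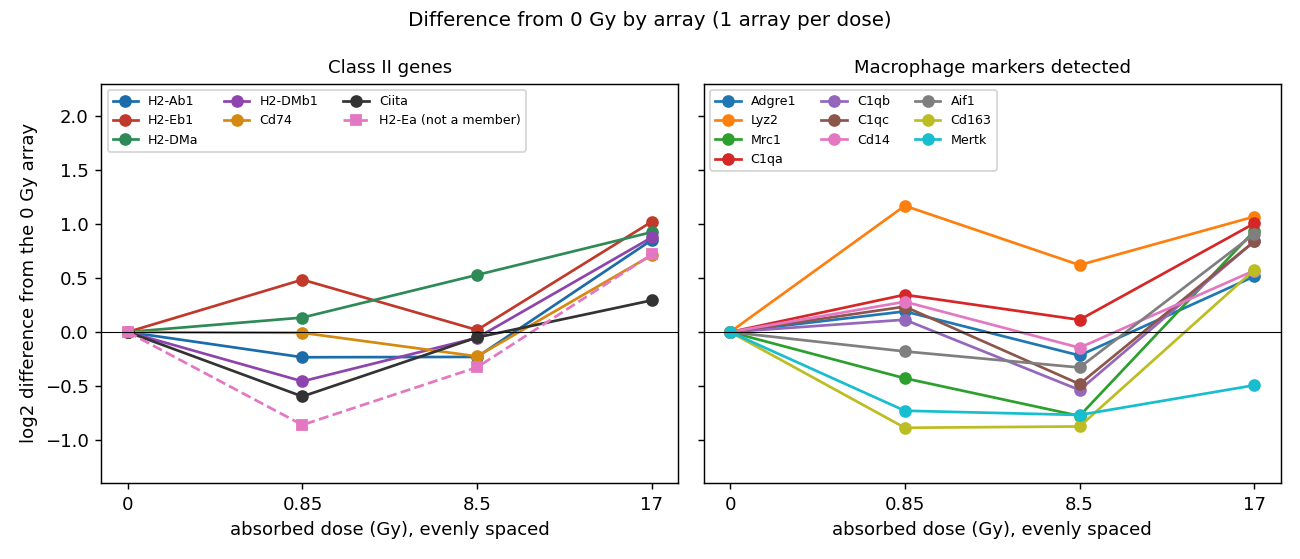
Log2 difference from the 0 Gy array (y axis) at each absorbed dose (x axis, evenly spaced) for 6 class II members and H2-Ea, left, and for the 10 detected macrophage markers, right, with 1 array per dose. At 17 Gy the class II lines lie between 0.29 and 1.02 and the macrophage lines between -0.49 and 1.07.

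Of 22 other class II pathway genes with a probe, 13 were detected. At 17 Gy against 0 Gy, H2-Ea was at least 1.5-fold higher and Nfyb, a subunit of the factor bound at the Y box, was lower at -0.79. These are 1 of 13 in each direction, where 5.06% of all genes were higher and 4.64% lower. The median was -0.05. The invariant chain proteases Ctss and Ctsl, cathepsins S and L, were at -0.22 and -0.13 and legumain (Lgmn) at 0.23. Sppl2a, the intramembrane protease that clears the membrane-bound fragment of the invariant chain, was at 0.34. Ctss read 132, 143, 162 and 129, with no array far from the others. The thiol reductase gene Ifi30 was at -0.05 at 17 Gy.

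At the lower doses several pathway genes were below 0 Gy. At 0.85 Gy 5 of 13 were at least 1.5-fold lower and 2 higher, where 12.7% and 9.37% of all genes were, with a median of -0.33. At 8.5 Gy 3 were lower and 0 higher, where 12.9% and 9.26% of all genes were, with a median of 0.01. Ctsh, cathepsin H, read 333, 222, 218 and 270, and its log2 differences were -1.24, -1.11 and -0.49. Marchf8, a ubiquitin ligase known to lower class II at the surface, was at -0.69, -0.94 and -0.12. Ifi30 was at 0.80 at 0.85 Gy, with -0.02 at its other probe, and Ctsd, cathepsin D, was at 0.66, 0.42 and 0.50. Rfxap, a subunit of the X box factor, was at -0.59, -0.30 and -0.17, and Rfx5, Rfxank, Nfya and Creb1 were undetected.

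Upstream of Ciita, interferon gamma itself was not detected on any array, at either of the 2 Ifng probes. Jak1, a kinase of its receptor, read 106, 164, 148 and 152 and lay at 0.88, 0.73 and 1.09, so the 0 Gy array was the low one. Ifngr2, a receptor chain, was at -2.17, -1.75 and -0.75 at its brightest probe. Its second probe, undetected at 0.85 Gy, was at -0.02 at 8.5 Gy and -0.52 at 17 Gy. A further probe, detected only at 8.5 Gy, had a fitted value of 0.93 there. The probes thus disagreed in size and, at 8.5 Gy, in direction. Irf1, an interferon-induced factor that acts on the Ciita promoter, was at 0.46, -0.001 and 0.07 at its brightest probe, and its other 3 detected probes lay between -0.11 and 0.29 at 17 Gy. Irf8, a factor of macrophages and dendritic cells, was not well above background at 0 Gy and was at least 1.38-fold, 1.38-fold and 1.52-fold higher at the 3 doses. Socs1 was undetected.

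Of the costimulation genes, Cd86, the ligand of CD28 on antigen-presenting cells, read 115, 129, 115 and 150. It was at -0.24, -0.59 and 0.72, and its other detected probe, undetected at 8.5 Gy, was at -0.26 at 0.85 Gy and 0.39 at 17 Gy. Both probes had 17 Gy highest. Cd40 was at -0.15, -0.18 and 0.05 and Cd274, which encodes PD-L1, at 0.10, -0.13 and -0.21. Cd80 was undetected.

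**Figure D4:**
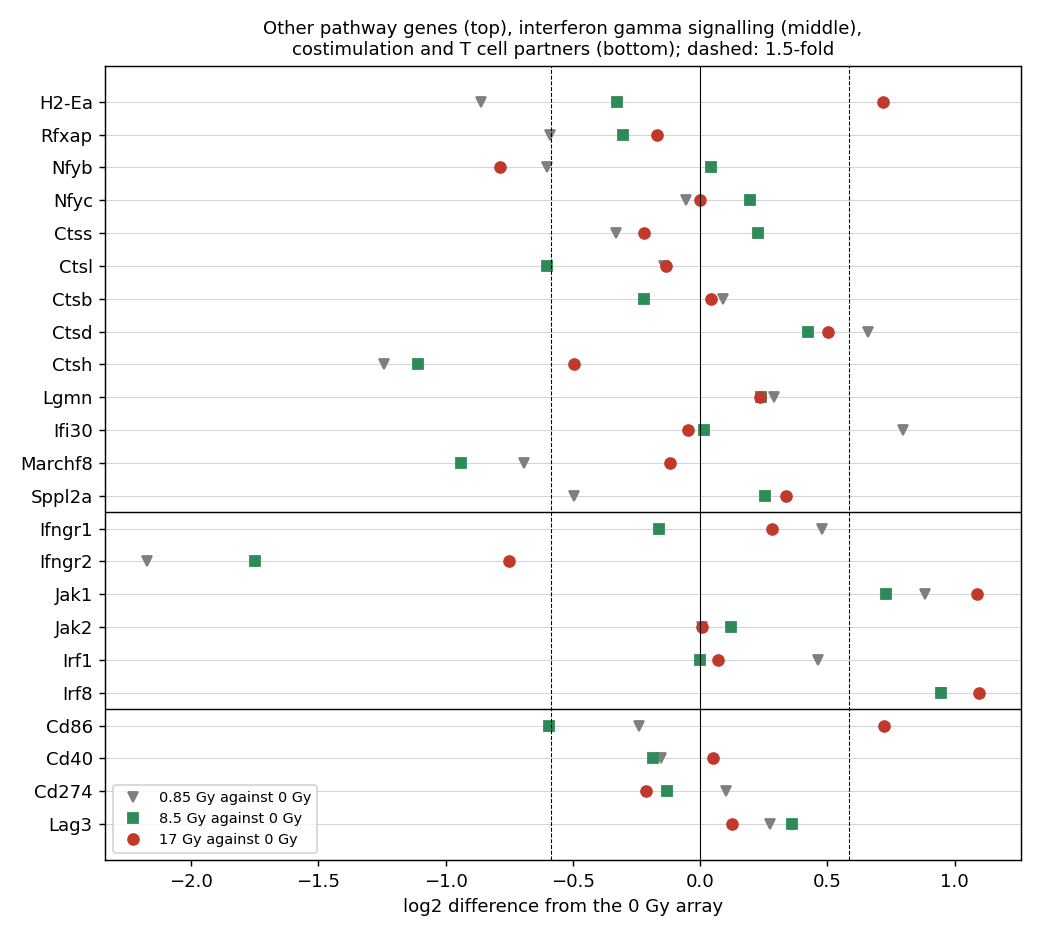
Log2 difference from the 0 Gy array (x axis) at 0.85 Gy (triangles), 8.5 Gy (squares) and 17 Gy (circles) for the detected genes of the class II pathway, of interferon gamma signalling and of costimulation. At 17 Gy H2-Ea, at 0.72, is the only one of the 13 pathway genes right of the upper 1.5-fold line. Irf8 was undetected at 0 Gy, so its points are fitted values for which the text gives bounds.

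MHC class I and peptide loading genes, several of which lie in the same chromosomal region, had medians of 0.27 at 0.85 Gy, -0.63 at 8.5 Gy and 0.25 at 17 Gy over 9 genes. At 8.5 Gy 6 of them were at least 1.5-fold lower, H2-D1 at -1.18 and Nlrc5, the class I counterpart of Ciita, at -1.12 among them, where 12.9% of all genes were. At 17 Gy 2 were at least 1.5-fold higher, Tapbp at 1.11 and Psmb8 at 0.74, where 5.06% of all genes were. Both were dim at 0 Gy, at intensities of 107 and 115. In the authors' normalized values they were at 0.53 and 0.37, under 1.5-fold. Tap1 and Psmb8 were not well above background at 8.5 Gy, and with both at their bounds the median there was -0.59 and 5 genes were at least 1.5-fold lower, without Tap1 at 1.47-fold. At 17 against 8.5 Gy the class I median was 0.92, beside 0.93 in the class II members. In that comparison 8 of the 9 class I genes were at least 1.5-fold higher, where 12.4% of all genes were. At 17 against 0.85 Gy the class I median was 0.12. There 1 gene was at least 1.5-fold higher and 1 lower, where 11.8% and 8.41% of all genes were. With 1 array at each dose the difference between the class I and class II sets was not tested.

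The genes whose 4 values were most like the median course of the 6 detected members were sought among genes detected on every array, by the root mean square distance between log2 values centred on their mean. Outside the lists, leaving out clone and predicted-gene symbols, these were Snrnp200, Rbms3, Dab2, Ankle2, Rbmx, Zfp275, Dcxr and Alkbh4, at distances of 0.083 to 0.10. They ranked 2 to 9 among all genes other than the members. Among list genes the nearest were Aif1 at 0.136, Laptm5 at 0.179, C1qa at 0.189 and Cd86 at 0.195. The members themselves lay between 0.085 (H2-Ab1) and 0.251 (H2-Eb1), and 477 other genes lay below the larger of these. The median distance over all genes was 0.407. With only 4 arrays such likeness is common.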

How the data were processed

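Total RNA from 4 samples was measured on Illumina BeadChips. The deposited non-normalized table holds mean bead intensity per probe and, per the file headers, a detection p-value. Its lowest intensities, 69 to 79, lie well above 0, so the negative control background appears not to have been subtracted. The authors' deposited normalized intensity values have identical sorted values in all 4 columns, from which quantile normalization is inferred. No source used here names the scanner software.

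The raw intensities were processed with neqc of limma 3.58.1 (R 4.3.3), which infers background from the detection p-values, applies normexp, adds 16, quantile-normalizes and takes log2. On simulated data it was checked that known folds were recovered, for probes well above background only. Recovery close to background was not checked. Of 25697 probes in the value table, 23978 had 1 gene symbol, 0 several and 1719 none, and 23962 matched GRCm38.p6 RefSeq gene identifiers. The probe with the highest mean intensity stood for each of 4777 genes with several. A gene counted as measured where 1 or both arrays of a comparison had a detection p below 0.01. Where it was detected on 1 of them, a bound uses the lowest detected value of the dim array. With 1 array a dose nothing was tested, and genes at least 1.5-fold or 2-fold apart were counted. Python 3.11.15, numpy 2.4.6, pandas 2.3.3 and matplotlib 3.10.9 were used.

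All members and all their probes are reported. From lists of 127 entries (116 matched by symbol, 1 by synonym, 10 with no probe), detected genes at least 1.5-fold apart against 0 Gy could be named, as could each list's defining genes, and the 8 genes with a descriptive symbol nearest in pattern. Some list genes below 1.5-fold were named for their role after their values were seen. Members and lists were chosen with earlier results of these data known. Alternatives were the authors' values, background correction, scaling, offset, the arrays normalized together, the probe rule and the detection filter. Before log2, 16 was added to the authors' values, which makes the folds of dim genes smaller.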

Additional observations from a re-analysis of the deposited data

How the results depend on the processing

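The spread used to judge a median was that of probes of 1 gene, 0.25 to 0.33 on the log2 scale for 1 probe, since there are no replicates. No median of the members moved by more than that under any alternative run. At 17 Gy against 0 Gy it lay between 0.68 (the authors' normalized values) and 0.88 (genes detected on all 4 arrays), and 5 members were at least 1.5-fold higher under each alternative. The share of all genes as much higher went from 5.06% to 0.74% without background correction, 1.33% with an offset of 50 and 0.804% in the authors' values, and to 2.44% with detection on all 4 arrays and 2.51% with no detection filter. The median was 0.86 with the 8.5 Gy array left out of the normalization. The count of members at least 1.5-fold lower at 0.85 Gy against 0 Gy went from 1, Ciita, to 0 with the authors' values, without background correction, with an offset of 50, without the 8.5 Gy array and with detection on all 4 arrays, and the count higher at 8.5 against 0.85 Gy went from 0 to 1 with scaling to the 75th percentile. Of the single-gene values 13 of 318 moved by more than the probe spread, 8 of them of Ciita, and H2-Ab1 at 0.85 Gy was 0.24 with the mean of all probes against -0.23. At 17 against 0.85 Gy, H2-Ab1 went from 1.09 to 0.53 with that mean, 0.93 with scaling to the 75th percentile and 0.96 in the authors' values, all under 2-fold. No paired analysis was possible because each dose has 1 array. Signal over background limits Ciita and H2-Aa. Calls of list genes also depended on the processing. In the authors' values at 17 Gy against 0 Gy, Jak1 was at 0.51, Cd86 at 0.36 and Nfyb at -0.53, all under 1.5-fold. At 8.5 Gy against 0 Gy, Psmb9 was at -0.31 in those values, under 1.5-fold, while H2-D1 was at -0.91. Nlrc5 was at -0.58 there, so near 1.5-fold that the 16 added before log2 may decide its call.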

Other observations

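Only 42 of the 6477 genes detected on every array stood at least 1.5-fold above each other array at 17 Gy, and they include 3 class II members, H2-Ea, Cd86 and 5 macrophage markers (Mrc1, Aif1, C1qa, C1qb and C1qc). These 3 members are 60.0% of the 5 detected on all arrays and 7.14% of the 42, and the macrophage genes are 5 of the 10 detected in their list and 11.9% of the 42. The genes outside the lists with the largest gaps on the log2 scale to the next array, named after their values were seen, were Wfdc12 (2.15), the chemokine genes Ccl8 (1.40) and Ccl27a (1.19), Clec4a3 (1.07), Lgals3 (1.01), Nckap1l (1.003), the chemokine gene Ccl9 (0.98) and Ly86 (0.97). Others of the 42 were Msmo1 (0.91), Kif2a (0.86) and Vcl (0.84). No theme over the 42 was tested.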
